A study of Rattus norvegicus with 2 samples.

Results

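miR-143 and miR-145 are microRNAs (miRNAs), short RNAs that bind messenger RNAs and lower their output, and their hairpins are encoded close together in one cluster. They were taken from the array features by the names rno-miR-143 and rno-miR-145, and both were present: they are 2 of 350 rat miRNA features and 2 of the 158 that were detected on both arrays. The study measured miRNAs in rat carotid artery on 1-colour arrays, from Cy3-labelled total RNA. The injured group is 1 array of carotid artery taken 10 days after balloon injury, and the uninjured group is 1 array of carotid artery without injury. Both came from male Sprague-Dawley rats of 250 g. Balloon injury strips the endothelium and stretches the vessel, and over the next weeks smooth muscle cells of the media divide and build a neointima. The sources used here do not give the number of rats behind each array, their age, any pooling, or whether the uninjured artery came from the same animal.

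Contractile smooth muscle is known for making large amounts of both miRNAs from one primary transcript, which serum response factor (SRF) and its partner myocardin switch on. In mouse and human cells miR-145 is known to repress Klf4 and Klf5, transcription factors that oppose the contractile state, and miR-143 to repress Elk1, which competes with myocardin for SRF. The pair is therefore widely used as a marker of smooth muscle that has kept its contractile form.

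The mature sequences show which messenger RNA sites each miRNA can pair with, through the seed at bases 2 to 8, in capitals. They are RefSeq sequences on build GRCr8, read 5′ to 3′. The array names carry no arm, and by the older naming they stand for the 3p arm of miR-143 and the 5p arm of miR-145.
miR-143-3p: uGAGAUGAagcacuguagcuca
miR-145-5p: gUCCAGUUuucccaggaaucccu
The seeds differ, so the miRNAs share a transcript and not a seed. The 2 mature sequences were 14 edits (substitutions, insertions or deletions) apart. Neither seed was the seed, at bases 2 to 8, of any of 493 other RefSeq mature sequences that matched the array's names (304 of the 350 names matched). The most similar of those sequences were 8 edits from miR-143-3p and 9 edits from miR-145-5p. The probe sequences were not used here.

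The hairpins show where each arm lies in its precursor, with the arm measured here in capitals.
Mir143: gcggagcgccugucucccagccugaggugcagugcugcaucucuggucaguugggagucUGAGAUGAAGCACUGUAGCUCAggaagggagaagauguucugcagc
Mir145: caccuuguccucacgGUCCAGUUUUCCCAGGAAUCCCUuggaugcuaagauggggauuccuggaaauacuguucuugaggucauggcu
On GRCr8 the Mir143 hairpin of 105 bases lies at chr18:57371349-57371453 and the Mir145 hairpin of 88 bases at chr18:57369983-57370070, both on the minus strand with 1278 bases between them. Both lie inside the span of the long non-coding RNA gene Carmn, also known as Mir143hg, at chr18:57368191-57389112, which is on the same strand. The opposite arms, miR-143-5p and miR-145-3p, had no feature of their own name among the 350, so only 1 strand of each hairpin could be followed.

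Each array gave 1 intensity, a brightness on a linear scale, and 1 flag per miRNA. All 7 negative control features carried a flag of 0 on both arrays. The files do not say what the flag means, and it was taken as a detection call. A miRNA flagged 1 is called measured below. 184 miRNAs were measured on the injured array and 166 on the uninjured array, and the miRNA intensities summed to 97479 injured and 95491 uninjured. With 1 array per group there is no replicate error, so no test was run, no p-value is given, and each difference compares these 2 arrays.

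Both miRNAs were dimmer on the injured array. miR-143 had an intensity of 13992 on the injured array, against 17014 on the uninjured array, and was flagged 1 on both. It was the brightest of the 350 miRNAs on each array. miR-145 had an intensity of 473 on the injured array, against 735 on the uninjured array, and was also flagged 1 on both. It ranked 35 by brightness on the injured array and 28 on the uninjured array. These values were far from the detection limit: miR-145 was 79.2 times as bright as the brightest undetected miRNA on the injured array and 83.1 times on the uninjured array. Brightness also depends on the probe, so the intensities of miR-143 and miR-145 do not say which is the more abundant.

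**Figure D1:**
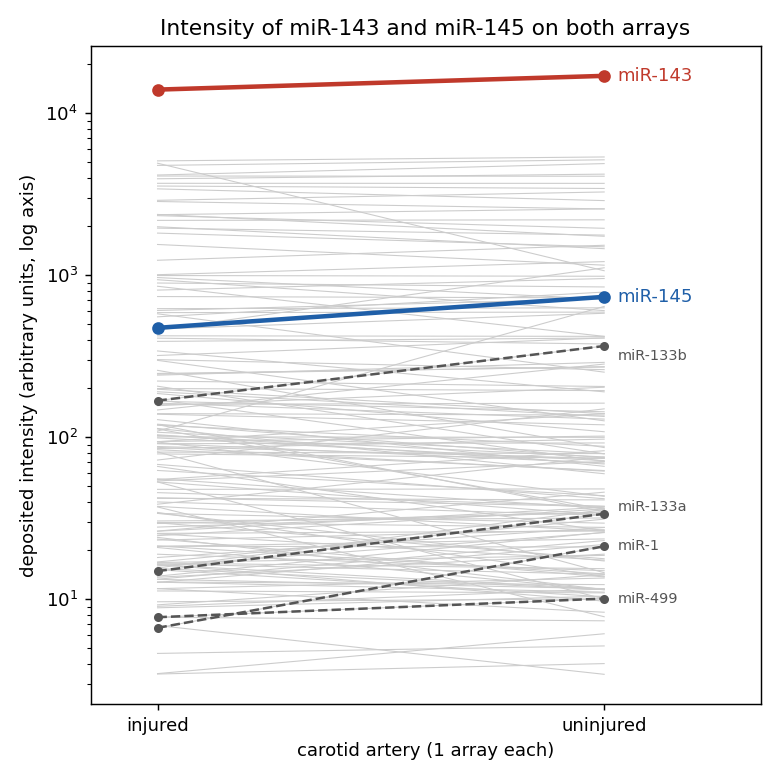
Deposited intensity (log axis, arbitrary units) of the 158 miRNAs measured on both arrays, 1 line each, on the injured (left) and uninjured (right) array. miR-143 (red, 13992 injured and 17014 uninjured) is the top line on both arrays, and miR-145 (blue) is at 473 injured and 735 uninjured. Dashed lines are the measured muscle miRNAs miR-133b, miR-133a, miR-1 and miR-499, and grey lines are the other miRNAs.

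miR-143 made up 14.4% of the summed miRNA intensity on the injured array, against 17.8% on the uninjured array. Its difference of -3022 intensity units, injured minus uninjured, was the largest drop of any of the 350 miRNAs in these units, ahead of miR-23b at -732. Only miR-21 differed by more in size, at 3849 units in the other direction. With miR-143 left out, the sum was 83487 on the injured array and 78477 on the uninjured array. A large drop in units goes with great brightness, and in proportion miR-143 kept 82.2% of its uninjured intensity before any scaling. miR-145 kept 64.4%, and it made up 0.485% of the sum on the injured array, against 0.770% on the uninjured array.

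Intensities were then put on a log2 scale and aligned between arrays at the 75th percentile of the 158 miRNAs measured on both, which added 0.09 to every log2 ratio. On this scale the level of miR-143 was 5.21 on the injured array, against 5.41 on the uninjured array, a log2 ratio of -0.19 or 1.14-fold lower after injury. The level of miR-145 was 0.33 on the injured array, against 0.87 on the uninjured array, a log2 ratio of -0.55 or 1.46-fold lower. Under this alignment neither reached the 2-fold difference used as a descriptive threshold. 6 of the 158 miRNAs (3.80%) reached it in the lower direction and 20 (12.7%) in the higher direction. miR-145 did pass it under 2 of 8 alternatives, at -1.05 with the 75th percentile over all miRNA features and at -1.14 with the control features aligned, while miR-143 passed it under none. That split turned with the alignment, to 16 lower and 8 higher with the medians aligned and 23 lower and 7 higher with the control features aligned. A log2 ratio below 0 was found for 55 of the 158 (34.8%), and both members were among them. That count also turned with the alignment, to 105 with the medians aligned and 120 with the control features aligned. Under the alignment used in the text, the median of all 158 was 0.14, with quartiles of -0.14 and 0.58. miR-143 lay 0.33 and miR-145 lay 0.69 below that median.

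In the order of log2 ratios from the lowest, miR-145 stood at 17 and miR-143 at 34 of 158. These ranks are the same under every alternative that shifts an array as a whole. Among the 40 miRNAs that were brightest by mean log2 intensity, a number chosen after the values were seen so as to hold both members, 14 had a log2 ratio below 0 and the median was 0.09. In that bright group miR-145 was second lowest after miR-494, at -1.18, and miR-143 was sixth, with miR-99a (-0.42), miR-30c (-0.24) and miR-26b (-0.22) between them. Within that group miR-143 was within a few hundredths of its neighbours, and miR-145 stood 0.13 from the next value above it and 0.63 from the one below. The distances of miR-145 come from the choice of group. Among all 158, its neighbours were miR-335 (-0.60) below and miR-466b (-0.53) above.

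**Figure D2:**
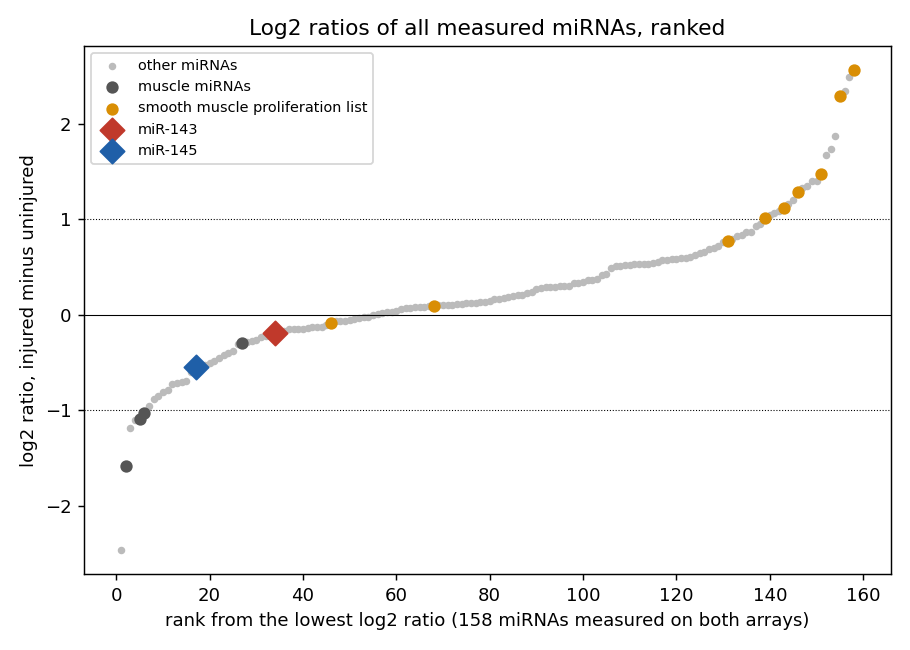
Log2 ratio (injured minus uninjured) of the 158 measured miRNAs against their rank from the lowest. miR-145 (blue diamond, -0.55, rank 17) and miR-143 (red diamond, -0.19, rank 34) lie between the muscle miRNAs miR-1, miR-133a and miR-133b (dark points, at or below -1.03) and the 9 miRNAs of the smooth muscle proliferation list (orange). The remaining dark point, the muscle miRNA miR-499 (-0.29, rank 27), lies between miR-145 and miR-143. Dotted lines mark a 2-fold difference.

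The difference between the members does not depend on how the arrays are aligned as a whole, because both stand on the same arrays. The log2 ratio of miR-145 was 0.35 below that of miR-143 (a gap of -0.35). miR-145 relative to miR-143 was thus 1.28-fold lower on the injured array than on the uninjured array. With quantile normalization, which does not shift an array as a whole, the gap was -0.54. Over all 12403 pairs that can be formed from the 158 miRNAs, the median gap was 0.60 in size, and 68.5% of pairs had a larger gap than the members. Both members share a primary transcript, yet 16 other miRNAs lay between them in the order of ratios.

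Other miRNAs made from one transcript give a scale for that gap. Of 28 such pairs named from general knowledge, 13 were measured on both arrays, including miR-145 with miR-143. Gaps in the 12 others ran from 0.0032 to 1.36 in size, with a median of 0.24, and 5 were larger and 7 smaller than that of the members. The erythroid pair miR-451 and miR-144 had the widest gap, with log2 ratios of -2.47 and -1.11. The pair miR-221 and miR-222, which represses the cell-cycle inhibitor p27, had ratios of 1.47 and 1.02, a gap of 0.46. At the other end, miR-195 and miR-497 were at -0.15 each, and the pair miR-23b and miR-27b was at -0.15 and 0.08. Several of these pairs share a member, such as those among miR-106b, miR-93 and miR-25, and RefSeq lists more than 1 hairpin for miR-17-5p. The gap of miR-17-5p with miR-20a, 0.61, is among the 5 larger ones. miR-17-5p was dim on the uninjured array, at 7.78, below the brightest undetected intensity of 8.84 there. Both miRNAs were below 0 in 2 of the 12 other pairs, miR-451 with miR-144 and miR-195 with miR-497. For 9 of the 12 RefSeq places both hairpins on one strand, with 79 to 541 bases between them, which is closer than the 1278 bases between Mir143 and Mir145.

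**Figure D3:**
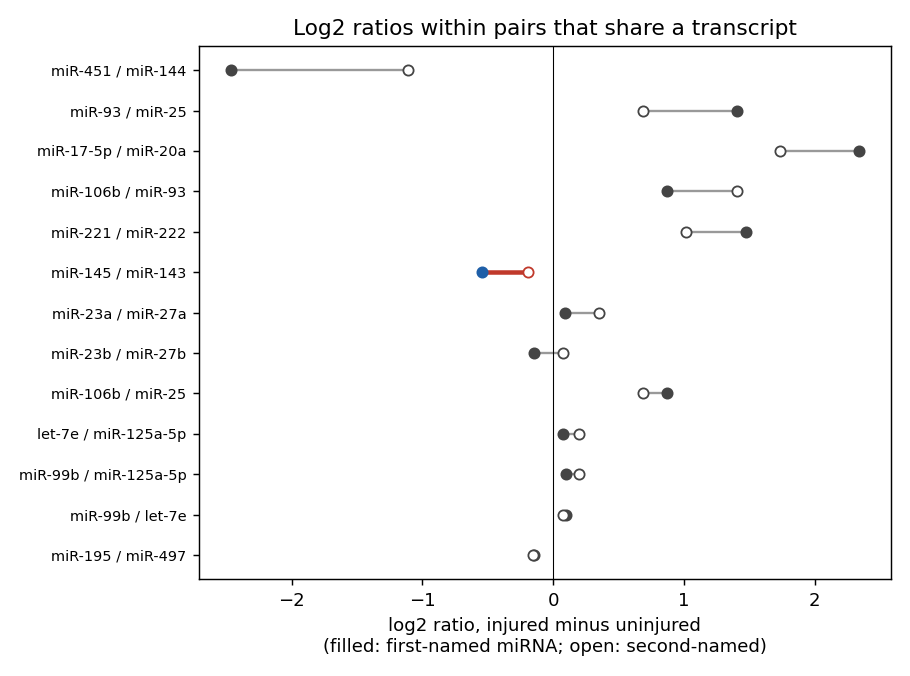
Log2 ratios (injured minus uninjured) of both members of the 13 measured pairs that share a transcript, ordered by the size of their gap; filled points are the first-named miRNA and open points the second. The gap between miR-145 (blue, -0.55) and miR-143 (red outline, -0.19) is 0.35, below those of 5 pairs and above those of 7.

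Of the other muscle miRNAs, several of which are known targets of SRF and myocardin, 3 were further below 0 than either member. Of 6 named, also with earlier results of these data known, 4 were measured on both arrays. All 4 had a log2 ratio below 0, as did 34.8% of all 158, or 120 of the 158 with the control features aligned. Of the 4, 3 were at least 2-fold lower (3.80% of all 158, or 14.6% with the control features aligned). The median log2 ratio of the 4 was -1.06, against 0.14 over all 158. miR-1, which is abundant in heart and skeletal muscle, had an intensity of 6.64 on the injured array, against 21.2 on the uninjured array, a log2 ratio of -1.58. miR-133a, which is clustered with miR-1, had 14.9 on the injured array, against 33.7 on the uninjured array, and was 2.13-fold lower. miR-133b had 168 on the injured array, against 365 on the uninjured array, and was 2.05-fold lower. The mature forms of miR-133a and miR-133b are so alike that each probe may also have read the other. miR-499, which is encoded inside a myosin gene, had a log2 ratio of -0.29, between those of the members. Its intensity was 7.73 on the injured array, against 10.1 on the uninjured array. Neither array detected miR-206, of skeletal muscle, or miR-208, of the heart. miR-1, miR-133a and miR-499 were dim, while miR-143 and miR-145 were bright. miR-1 and miR-499 were close to the brightest undetected intensity of 5.98 on the injured array. miR-499 was also close to that of the uninjured array, 8.84.

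The 9 miRNAs of the smooth muscle proliferation list are known from growing or injured smooth muscle. They were picked with earlier results of these data known. Their contrast with the members is therefore a description and not an independent test. Most of them lay on the other side of the distribution. All 9 were measured on both arrays. At least a 2-fold higher value was found for 6 and a 2-fold lower one for 0, where 12.7% of all 158 were at least 2-fold higher. Their median log2 ratio was 1.12, against 0.14 over all 158. The count of 6 became 3 with the medians aligned, where 5.06% of all 158 were at least 2-fold higher. It became 2 with the control features aligned or the 75th percentile over all miRNA features. Under each of these alignments 4.43% of all 158 were at least 2-fold higher. miR-21, which favours smooth muscle growth and survival, had an intensity of 4915 on the injured array, against 1065 on the uninjured array. On the injured array it was exceeded in brightness by miR-143 and let-7c alone. Among the 9, the lowest log2 ratio was -0.08, for miR-26a, so that both members lay below every miRNA of that list, except under quantile normalization, where miR-143 is at 0 and miR-26a below it.

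The miRNAs whose log2 ratios were nearest to each member were found over these 2 arrays by the size of the difference. For miR-143 they were miR-29c (-0.18), miR-30b-5p (-0.17) and miR-26b (-0.22), each within 0.03. For miR-145 they were miR-466b (-0.53), miR-224 (-0.53) and miR-150 (-0.50), each within 0.05. The neighbours of miR-143 were bright, with uninjured intensities of 290 to 1531, and those of miR-145 were dim, with 14.1 to 82.4. With 1 difference per miRNA, a near value does not show a shared pattern.

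Markers of some other cells also differed between the arrays. All the cell type lists, too, were made with earlier results of these data known. In the leukocyte list all 6 miRNAs were measured on both arrays. Of these 3 were at least 2-fold higher (12.7% of all 158 were), namely miR-223 and both arms of the miR-142 hairpin, miR-142-3p and miR-142-5p. The 6 together summed to 636 on the injured array, against 316 on the uninjured array. They include miR-146a, which is also in the proliferation list. miR-223, of neutrophils and macrophages, had 259 injured and 86.2 uninjured. The list did not go one way: miR-150, of mature lymphocytes, had 54.7 injured and 82.4 uninjured, a log2 ratio of -0.50, and miR-342-3p had 29.7 injured and 27.7 uninjured, a log2 ratio of 0.19. In the erythroid pair both were at least 2-fold lower (3.80% of all 158 were). miR-451 had 109 on the injured array, against 641 on the uninjured array, and miR-144 had 15.6 injured and 35.7 uninjured. In the nerve and glia list 3 of 8 were measured on the injured array, where 184 of all 350 were. On the uninjured array 7 of 8 were measured, where 166 of all 350 were. Of those 7, miR-9 (7.43) and miR-129* (5.77) were dimmer than the brightest undetected miRNA of that array (8.84). The measured ones, which are not the same miRNAs on each array, summed to 218 injured and 384 uninjured. Most of each sum was miR-338, at 147 injured and 283 uninjured. miR-124, of neurons, was listed at the floor of 1 and undetected on the injured array, against 16.2 on the uninjured array. Others of that list went the other way, with miR-219-5p at 30.9 injured and undetected at 6.41 uninjured, and miR-128 at 39.8 injured and 32.9 uninjured. The endothelial miR-126 and miR-126* summed to 615 injured and 626 uninjured. The epithelial list of 8 had 1 measured miRNA, miR-205, at 20.8 injured and 11.4 uninjured, and the liver miRNA miR-122 was undetected on both arrays. The part of these cells in the lower values of miR-143 and miR-145 was not tested. In a whole artery, fewer smooth muscle cells in the sample and less of these miRNAs in each cell cannot be told apart.

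How far both miRNAs were lower depended on the alignment of the arrays, while the order of the members did not. A shift of a whole array cannot change that order. With each array's 75th percentile taken over all 350 features, miR-143 was at -0.69 and miR-145 at -1.05, past the 2-fold threshold, and 20 of the 158 miRNAs (12.7%) were at least 2-fold lower. Without scaling the log2 ratios were -0.28 for miR-143 and -0.64 for miR-145. The 6 control features detected on both arrays were all brighter on the injured array, with unscaled log2 ratios of 0.31 to 0.96 and a median of 0.50, against a median of 0.05 for the 158 miRNAs. With the median of those control features set to 0, miR-143 was at -0.79 and miR-145 at -1.14, also past it. Under that alignment 23 of the 158 miRNAs (14.6%) were at least 2-fold lower, so miR-145 was one of many. The sources used here give neither what these control features detect nor how much RNA was put on each array.

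**Figure D4:**
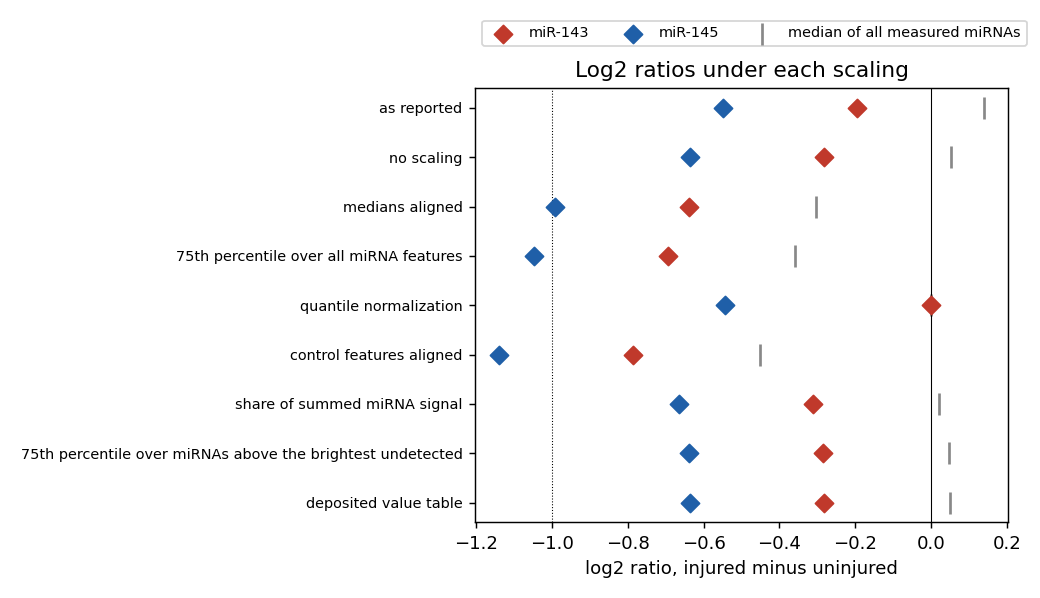
Log2 ratios (injured minus uninjured) of miR-143 (red) and miR-145 (blue) under the alignment used in the text (top) and 8 alternatives, with the median of the measured miRNAs as a grey bar; the dotted line marks 2-fold lower. miR-145 lies left of miR-143 in each, and with quantile normalization miR-143 and the median, hidden behind it, are both at 0.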

How the data were processed

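Total RNA of 2 carotid artery samples was extracted with Trizol and Cy3-labelled with Agilent's miRNA kit, per the labels' protocols. The 2 deposited files of the arrays hold 1 linear intensity and 1 flag for each of 350 miRNA and 22 control features. The sources used here give no scanner software, background subtraction or normalization. 109 miRNAs on each array were listed at exactly 1, a floor. The deposited value table holds a ratio per miRNA, which for 349 of 349 shared names equalled injured over uninjured intensity (relative tolerance 1e-05).

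Log2 intensities were aligned between arrays at the 75th percentile of the miRNAs flagged 1 on both arrays, at 377 injured and 401 uninjured. The log2 ratio is injured minus uninjured. Python 3.11.15, numpy 2.4.6 and pandas 2.3.3 were used. The scaling code was checked on simulated data without noise, with as many miRNAs raised as lowered. That check does not show which alignment suits these arrays. Named miRNAs are both members, the muscle, proliferation and cell type lists, the pairs that share a transcript, the 3 nearest ratios to each member and the brightest miRNAs. Members and lists were chosen with earlier results of these data known. The alternatives were 7 other alignments and the deposited ratio table. The number of arrays limits the precision.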

Additional observations from a re-analysis of the deposited data

How the results depend on the processing

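The sign was negative for miR-145 under all 8 alternatives and for miR-143 under 7, but none of these alternatives can stand in for replicate arrays. miR-145 was below miR-143 in each. A shift of a whole array cannot change that order, so only quantile normalization could have altered it. For both members the deposited ratio table repeats the unscaled log2 ratios. The log2 ratios of miR-143 and miR-145 were -0.28 and -0.64 without scaling and with the deposited ratio table, -0.64 and -0.99 with the medians aligned, -0.69 and -1.05 with the 75th percentile over all miRNA features, -0.79 and -1.14 with the control features aligned, -0.31 and -0.67 as shares of the summed miRNA intensity, and -0.29 and -0.64 with the 75th percentile over miRNAs above the brightest undetected. With quantile normalization miR-143 was at 0, because it is the brightest miRNA on both arrays and is given the same value there by construction. miR-145 was then at -0.54 and the gap between the members was -0.54 instead of -0.35. The counts of miRNAs at least 2-fold higher and lower, 20 and 6 in the text, were 8 and 16 with the medians aligned, 7 and 20 with the 75th percentile over all miRNA features, 13 and 12 with quantile normalization, and 7 and 23 with the control features aligned. No paired analysis was possible because each group holds 1 array.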
